A study of Mus musculus with 6 samples.

Results

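AMPA and NMDA receptors are the glutamate-gated ion channels that carry most fast excitatory transmission in the cortex. AMPA receptors assemble from the subunits GluA1 to GluA4, encoded by *Gria1*, *Gria2*, *Gria3*, and *Gria4*, and open within milliseconds of glutamate release. NMDA receptors need the obligatory subunit GluN1 (*Grin1*) together with GluN2 subunits (*Grin2a*, *Grin2b*, *Grin2c*, and *Grin2d*) or GluN3 subunits (*Grin3a*). Those of GluN1 and GluN2 admit calcium and require a co-agonist, glycine or D-serine, as well as glutamate. Neurons hold most of both receptors, although oligodendrocyte precursors and astrocytes also transcribe some subunits. The 10 genes described here were taken by name, 4 for AMPA and 6 for NMDA subunits, out of 46078 genes in the count tables.

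Bulk RNA-Seq covered 3 infarcts and 3 contralateral cortices of male WT C57BL/6J mice, labelled as 3 months of age, at 7 weeks after stroke. Strokes were made by distal middle cerebral artery occlusion combined with hypoxia, and both groups came from mice with stroke, so that the contralateral cortex is the uninjured side and not tissue from naive mice. Infarcts were identified by eye and dissected as bulk tissue, and the sample records do not state which infarct and which cortex came from the same mouse. Libraries held between 11943570 and 19933962 counts on genes. Levels are given as CPM, read counts relative to the library total after TMM scaling, a correction for differences in library composition, and levels of different subunits were compared only as CPM per kilobase (kb) of exon.

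The tissue labels were checked against cell type markers, beside the 20.9% of all tested genes that were called lower and the 25.7% that were called higher by the test described below. Each of 14 pan-neuronal genes, among them the synaptic vesicle calcium sensor *Syt1*, was lower in infarcts, and their summed level in infarcts 1, 2, and 3 was 6.99%, 10.6%, and 19.3% of the contralateral mean. Of 12 excitatory neuron genes 9 were lower, including the vesicular glutamate transporter *Slc17a7*, 2 were not called, and 1, the transcription factor gene *Foxp2*, was higher, and they summed to 13.6%, 22.1%, and 29.2%. Without *Foxp2*, which was singled out after its values were seen, the sums were 8.55%, 11.7%, and 24.6%. All 12 inhibitory neuron genes, among them the GABA-synthesizing enzyme *Gad1*, were lower and summed to 12.2%, 15.3%, and 19.3%. All 6 fibroblast genes (such as *Col3a1*) and 7 of 8 microglia and macrophage genes (such as *Csf1r*) were higher in infarcts. Of 8 oligodendrocyte precursor genes 2 were higher and 0 lower, with summed levels of 611, 482, and 467 CPM in infarcts and 249, 204, and 244 CPM in contralateral cortices. Of 10 astrocyte genes 3 were higher and 2 were lower, including the glutamate transporter *Slc1a2*. Of 8 oligodendrocyte genes 4 were higher and 0 lower, and of 6 endothelial genes 2 were higher and 0 lower, with *Slco1a4* among those not called. Of 6 genes marking the neighboring hippocampus, 1 was lower, 2 were higher, and 3 were not called, with a median log2 fold change of 0.09. *Zbtb20*, one of those higher, measured 560, 357, and 460 CPM in infarcts and 157, 136, and 127 CPM in contralateral cortices. Whether infarct samples held hippocampal tissue was not tested. *Pdgfra*, an oligodendrocyte precursor gene that was higher, is also transcribed by fibroblasts. It made up most of the precursor sums in infarcts, at 497, 355, and 298 CPM. In contralateral cortices *Pdgfra* measured 111, 95.2, and 101 CPM, so that the higher sums in infarcts mainly follow this gene. The part of these cell types in the subunit results was not tested.

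Infarct 3 stood apart from infarcts 1 and 2 in the subunit transcripts. All 10 subunits were highest in infarct 3 among the infarcts, by a median of 2.60-fold over the mean of infarcts 1 and 2, compared with 1.48-fold over the 3256 genes called lower and 0.997-fold over the 15554 genes tested. The genes called lower had passed a test that favors little spread among infarcts. The pan-neuronal genes summed to 2.18-fold the mean of infarcts 1 and 2 in infarct 3, excitatory neuron genes to 1.64-fold, and inhibitory to 1.40-fold. Single neuron genes differed widely in this ratio. Among excitatory neuron genes it ran from 0.353 for *Slc17a6* to 13.5 for *Neurod6*, with *Cux2* at 0.999. Values are therefore given both with and without infarct 3 where it decides their size or their call.

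The codon that sets ion passage through the pore is shown for 8 of the subunits, because this position governs calcium permeability and, in NMDA receptors, magnesium block. Each stretch of 27 bases is coding sequence of GENCODE M21 on GRCm38, written 5′ to 3′ on the strand of the gene, and the capitals mark the codon of the Q/R site in AMPA subunits and of the N site in NMDA subunits. In *Gria2* the adenosine of this codon is edited in the pre-mRNA by ADAR2 (*Adarb1*), which makes receptors that hold GluA2 nearly impermeable to calcium. Before editing, the codon reads CAG in *Gria1*, *Gria2*, and *Gria3* and CAA in *Gria4*, both codons for glutamine.
*Gria1*, chr11:57243082-57243108: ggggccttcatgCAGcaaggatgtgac
*Gria2*, chr3:80706899-80706925: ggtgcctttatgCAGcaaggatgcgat
*Gria3*, chrX:41610253-41610279: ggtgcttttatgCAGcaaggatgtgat
*Gria4*, chr9:4464125-4464151: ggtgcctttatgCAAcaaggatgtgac
*Grin1*, chr2:25297374-25297400: ggcgtcctgctcAACtctggcattggg
*Grin2a*, chr16:9653549-9653575: ggcctggtcttcAACaattctgtgccc
*Grin2c*, chr11:115253851-115253877: gcactggtcttcAACaactctgttccc
*Grin2d*, chr7:45854381-45854407: gccctggtgttcAACaactccgtgcca
The AMPA stretches were identical to each other at 23 to 25 of 27 bases, those of *Grin2a*, *Grin2c*, and *Grin2d* at 22 to 23, and *Grin1* shared 10 to 12 bases with the latter. Deposited counts are sums over a whole gene, so that neither the edited base nor the splice forms of a subunit can be read from them.

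To compare the subunits between regions, each was tested with the quasi-likelihood test of edgeR, with Benjamini-Hochberg adjustment over all 15554 tested genes. Calls required a log2 fold change beyond 1 in either direction and an adjusted p under 0.05. All 10 subunits passed the filter on low counts, and 9 were called lower in infarcts: 3 of 4 AMPA and 6 of 6 NMDA subunits. None was called higher. Over all tested genes, 20.9% were called lower and 25.7% higher. In all 10 subunits the infarct values lay below every contralateral value, which held for 34.7% of tested genes. DESeq2 also called 9 lower, against 13.2% of the genes it tested, and edgeR without infarct 3 called all 10, against 22.7%. The median log2 fold change was -2.72 over AMPA and -2.37 over NMDA subunits, compared with 0.03 over all tested genes. Without infarct 3 the medians were -2.95 and -2.97. In bulk tissue, fewer neurons and fewer transcripts per neuron cannot be told apart.

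**Figure D1:**
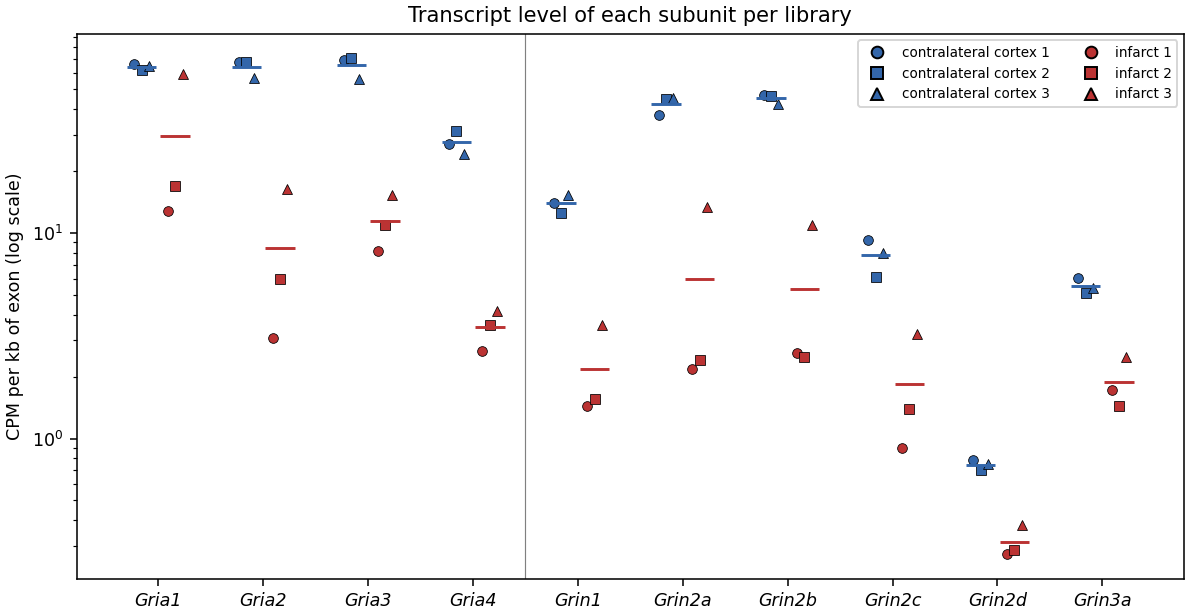
Level of each subunit in every library, as CPM per kb of exon on a log axis, with contralateral cortices in blue, infarcts in red, and a bar at the mean of 3 libraries. Infarct points lie below all contralateral points for all 10 subunits, and infarct 3 (red triangle) is the highest infarct each time.

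*Gria2* (ENSMUSG00000033981, chr3:80681450-80802835, minus strand) encodes GluA2, the subunit that limits calcium entry. It measured 48.2, 92.5, and 254 CPM in infarcts 1, 2, and 3 and 1058, 1058, and 880 CPM in contralateral cortices. The infarcts did not reach the lowest cortex, but infarct 1 and infarct 3 were far apart, at 4.83% and 25.4% of the contralateral mean. *Gria2* fell by 2.92 on the log2 scale (SE 0.59, adjusted p = 0.00422), or 7.59-fold, and the log2 fold change without infarct 3 was -3.81 (SE 0.29).

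*Gria1* (ENSMUSG00000020524, chr11:57011387-57330244, plus strand) encodes GluA1, which is delivered to synapses during long-term potentiation. It measured 76.9, 102, and 358 CPM in infarcts and 399, 375, and 393 CPM in contralateral cortices. Infarcts 1 and 2 were at 19.8% and 26.1% of the contralateral mean, whereas infarct 3 was at 92.0%, just under the lowest cortex. *Gria1* was the subunit that was not called, with a log2 fold change of -1.12 (SE 0.57, adjusted p = 0.125). Without infarct 3 it was called lower, at -2.11 (SE 0.17, adjusted p = 7.05e-07).

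*Gria3* (ENSMUSG00000001986, chrX:41400854-41678601, plus strand), which encodes GluA3, measured 80.2, 108, and 151 CPM in infarcts and 681, 697, and 551 CPM in contralateral cortices. *Gria4* (ENSMUSG00000025892, chr9:4417896-4796234, minus strand) encodes GluA4, a subunit abundant in parvalbumin interneurons. It measured 16.8, 22.4, and 26.4 CPM in infarcts and 171, 198, and 153 CPM in contralateral cortices. Both were low in each of the 3 infarcts, with infarct 3 within 1.61-fold and 1.35-fold of the mean of the other two. *Gria3* fell by 2.51 on the log2 scale (SE 0.24, adjusted p = 1.42e-05) and *Gria4* fell by 2.99 (SE 0.20, adjusted p = 1.32e-06), and without infarct 3 the log2 fold changes were -2.76 and -3.14.

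*Grin1* (ENSMUSG00000026959, chr2:25291181-25319187, minus strand), the subunit that every NMDA receptor holds, measured 13.9, 15.1, and 34.6 CPM in infarcts and 135, 122, and 148 CPM in contralateral cortices. The infarcts were at 10.3%, 11.1%, and 25.6% of the contralateral mean. *Grin1* fell by 2.67 on the log2 scale (SE 0.35, adjusted p = 2.89e-04), or 6.35-fold, and the log2 fold change without infarct 3 was -3.20 (SE 0.18). The antisense gene *Grin1os* overlaps 13.5% of its exon bases on the other strand and was at most 10.3 CPM in any library, and the strand setting of the counting is not named in the sources used here.

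*Grin2a* and *Grin2b* encode GluN2A and GluN2B, the major GluN2 subunits of the forebrain, of which GluN2B predominates before birth and GluN2A rises afterward. *Grin2a* (ENSMUSG00000059003, chr16:9567898-9995560, minus strand) measured 38.9, 43.4, and 239 CPM in infarcts and 670, 803, and 812 CPM in contralateral cortices. *Grin2b* (ENSMUSG00000030209, chr6:135713233-136173511, minus strand) measured 64.4, 61.9, and 271 CPM in infarcts and 1162, 1152, and 1048 CPM in contralateral cortices. Infarcts 1 and 2 were alike, between 5.11% and 5.75% of the contralateral mean for both genes, and infarct 3 held 31.4% for *Grin2a* and 24.2% for *Grin2b*. *Grin2a* fell by 2.83 on the log2 scale (SE 0.78, adjusted p = 0.0187) and *Grin2b* fell by 3.08 (SE 0.62, adjusted p = 0.00423), and without infarct 3 both log2 fold changes were larger in size, -4.19 (SE 0.19) and -4.14 (SE 0.18). *Grin2a* was not called when infarct 1 was left out (log2 fold change -2.41, adjusted p = 0.0574).

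*Grin2c* (ENSMUSG00000020734, chr11:115249169-115267243, minus strand), whose product GluN2C is best known from cerebellar granule cells and is also transcribed by astrocytes, measured 4.54, 6.98, and 16.2 CPM in infarcts and 46.5, 30.9, and 40.3 CPM in contralateral cortices. *Grin2d* (ENSMUSG00000002771, chr7:45831883-45878378, minus strand) encodes GluN2D, found mainly in interneurons and in early development. It was the least abundant subunit, with 1.83, 1.91, and 2.53 CPM in infarcts and 5.22, 4.69, and 4.98 CPM in contralateral cortices, from 23 to 100 counts. Both genes were lower in every infarct than in any cortex, and the smaller gap was that of *Grin2d*, which kept 36.9% to 50.9% of the contralateral mean. *Grin2c* fell by 2.08 on the log2 scale (SE 0.44, adjusted p = 0.00425) and *Grin2d* fell by 1.24 (SE 0.27, adjusted p = 0.00277), and without infarct 3 the log2 fold changes were -2.75 (SE 0.27) and -1.39 (SE 0.33). An antisense gene overlaps 9.66% of the exon bases of *Grin2d*.

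*Grin3a* (ENSMUSG00000039579, chr4:49661611-49845744, minus strand) encodes GluN3A, a glycine-binding subunit of juvenile synapses that lowers calcium entry. It measured 21.2, 17.7, and 30.6 CPM in infarcts and 74.0, 62.4, and 66.0 CPM in contralateral cortices. The infarcts were at 31.4%, 26.2%, and 45.3% of the contralateral mean, the only subunit with its lowest value in infarct 2 besides *Grin2b*. *Grin3a* fell by 1.54 on the log2 scale (SE 0.21, adjusted p = 1.41e-04), or 2.91-fold, and the log2 fold change without infarct 3 was -1.78 (SE 0.18).

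**Figure D2:**
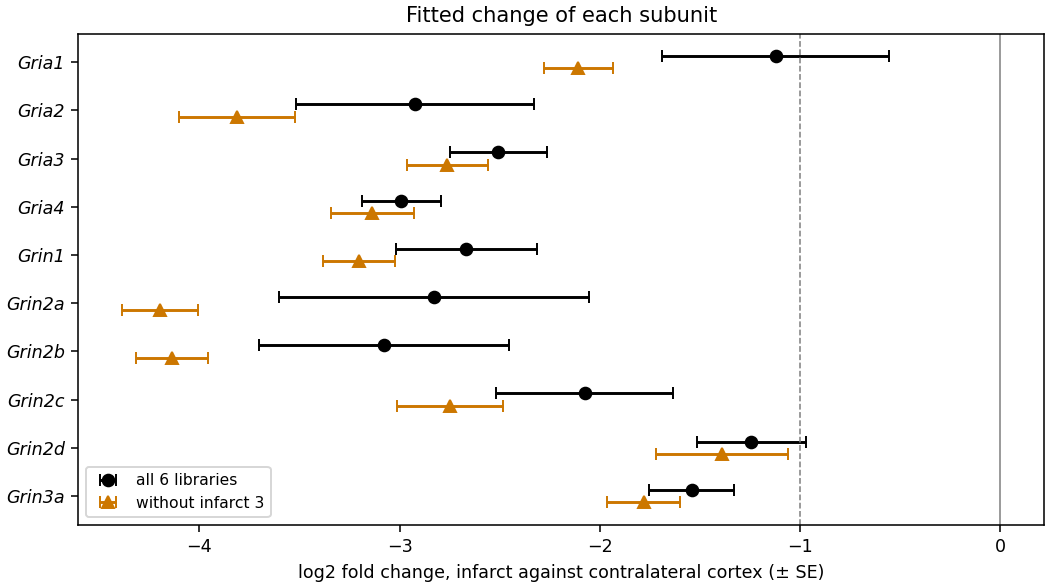
Log2 fold change of each subunit, infarct against contralateral cortex, with its standard error, from all 6 libraries (black circles) and without infarct 3 (orange triangles). The dashed line marks a log2 fold change of -1. *Grin2a* moved from -2.83 to -4.19 and *Gria1* from -1.12 to -2.11 without infarct 3, while *Grin2d* and *Gria4* moved by less than their standard errors.

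The spread among infarcts was unequal between the subunits. Infarct 3 exceeded the mean of infarcts 1 and 2 by 5.81-fold for *Grin2a*, 4.30-fold for *Grin2b*, 4.01-fold for *Gria1*, and 3.61-fold for *Gria2*. Against the genes called lower, these ratios stood at percentiles 98.8, 97.1, 96.2, and 95.1, respectively, although *Gria1* was not itself called. Those genes had passed a test that a wide spread among infarcts makes harder to pass, which can raise such percentiles. For *Gria3*, *Grin3a*, *Grin2d*, and *Gria4* the excess was 1.35-fold to 1.61-fold, at percentiles between 40.4 and 57.0. Thus, the same library held unlike fractions of the contralateral level, from 15.2% for *Gria4* to 92.0% for *Gria1*.

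**Figure D3:**
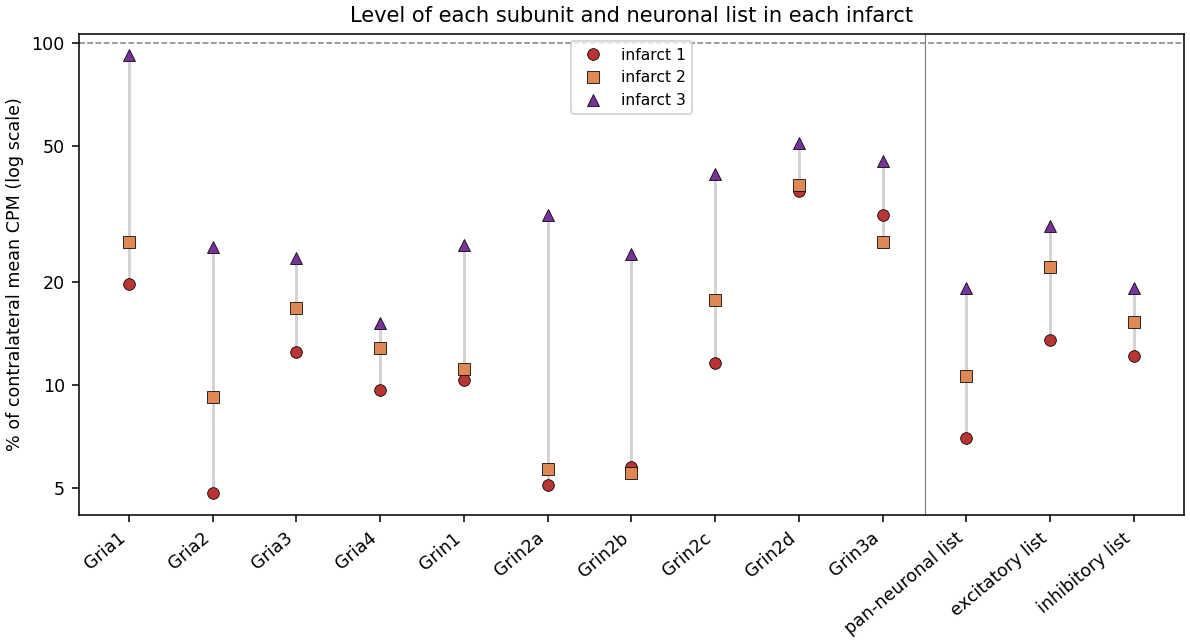
Level of each subunit in infarcts 1, 2, and 3 as a percentage of the contralateral mean CPM, on a log axis, beside the summed levels of the pan-neuronal, excitatory, and inhibitory neuron genes (*Foxp2* included). The triangle of infarct 3 is the highest point in every column, at 92.0% for *Gria1* and 19.3% for the pan-neuronal genes.

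Transcript levels per kb of exon set the subunits in order. In contralateral cortices *Gria3* (65.2 ± 8.12 CPM per kb, SD, n = 3), *Gria1* (64.4 ± 2.11), and *Gria2* (64.2 ± 6.60) were highest and overlapped each other. *Grin2b* (45.1 ± 2.54) and *Grin2a* (42.5 ± 4.42) followed and overlapped. Below them stood *Gria4* (27.6 ± 3.54), *Grin1* (13.9 ± 1.37), *Grin2c* (7.79 ± 1.56), *Grin3a* (5.49 ± 0.483), and *Grin2d* (0.746 ± 0.0403), which did not overlap each other, although the lowest *Grin2c* value (6.13) was close to the highest of *Grin3a* (6.03). Exon length was the union over all transcripts of a gene, which gives a lower level per kb than its longest transcript would. The gap was wide for *Grin1* (9700 bases against 4276), *Gria3* (9859 against 5206), *Grin3a* (12275 against 7491), and *Gria2* (15548 against 10371). The order of the subunits and the overlaps between neighbors, here and in infarcts, therefore depend on this choice of length.

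In infarcts the order began with *Gria1* (29.6 ± 25.7 CPM per kb), *Gria3* (11.5 ± 3.63), and *Gria2* (8.46 ± 6.96), followed by *Grin2a* (5.98 ± 6.38), *Grin2b* (5.34 ± 4.84), *Gria4* (3.47 ± 0.765), *Grin1* (2.19 ± 1.20), *Grin3a* (1.89 ± 0.543), *Grin2c* (1.84 ± 1.23), and *Grin2d* (0.314 ± 0.0571). Among neighbors in this order, *Grin2c* and *Grin2d* were the pair whose values did not overlap. Infarct 3 set part of this order. Over infarcts 1 and 2 alone, *Gria1* (14.8), *Gria3* (9.53), and *Gria2* (4.53) were still followed by the other subunits, but *Gria4* (3.11) preceded *Grin2b* (2.54) and *Grin2a* (2.30), and *Grin3a* (1.58) preceded *Grin1* (1.49). Summed over subunits, AMPA transcripts measured 26.6, 37.3, and 95 CPM per kb in infarcts and 230, 232, and 202 in contralateral cortices, and NMDA transcripts 9.11, 9.58, and 33.9 and 114, 116, and 117. The ratio of AMPA to NMDA transcripts was 2.92, 3.89, and 2.80 in infarcts and 2.02, 2.01, and 1.73 in contralateral cortices, without overlap and without a test.

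The composition of each family was then compared as each subunit's percentage of the family's counts per kb within a library, a measure in which the scaling of libraries cancels. Each of 10 shares and the ratio of *Grin2b* to *Grin2a* was tested with a two-sided exact permutation test of 3 against 3 libraries, which cannot give a p under 0.1, so that no share could pass 0.05. *Gria1* made up 47.8%, 45.1%, and 62.3% of AMPA transcripts in infarcts and 28.7%, 26.7%, and 32.2% in contralateral cortices. *Gria2* made up 11.6%, 16%, and 17.2% in infarcts and 29.5%, 29.3%, and 28.1% in contralateral cortices. The *Gria1* share was thus 22.5 points higher and the *Gria2* share lower by an average of 14 points in infarcts (-14 points), each without overlap (exact permutation p = 0.1, adjusted p = 0.157). *Gria4* averaged 7.98% and 12.4%, also without overlap, and *Gria3* averaged 25.3% and 29.4% with overlapping values (exact permutation p = 0.7).

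Counts of *Gria1* per kb exceeded those of *Gria2* by 4.11-, 2.83-, and 3.63-fold in infarcts, and the ratio was 0.972, 0.911, and 1.15 in contralateral cortices. All 3 infarcts thus held more *Gria1* than *Gria2* transcripts per kb, with the ratio of infarct 3 between those of infarcts 2 and 1. In a limma fit of each gene's log2 level minus that of *Gria2* in the same library, the log2 fold change of *Gria1* was 1.79 higher than that of *Gria2* (SE 0.75, adjusted p = 0.0210). Moderation across genes gave nearly the same SE to each subunit (0.75 to 0.81 against *Gria2*), and the spread of the shared reference enters every difference, so that these SEs are not the subunits' own. A fit without moderation, added after seeing the data, gave the same difference with an SE of 0.19 and a 95% interval of 1.27 to 2.31 (adjusted p = 0.0167). Of all genes, 86.1% were called higher than *Gria2* with moderation and 84.2% without it, so that the call sets *Gria1* apart from *Gria2* and not from genes at large. The call was lost when infarct 2 or any contralateral cortex was left out, with adjusted p between 0.0560 and 0.112. *Gria3* (difference 0.71, 95% interval -0.77 to 2.18) and *Gria4* (0.25, interval -1.26 to 1.77) were not called against *Gria2*. Without infarct 3, *Gria3* was called as well (difference 1.11, adjusted p = 0.00869), as were 93.8% of all genes.

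**Figure D4:**
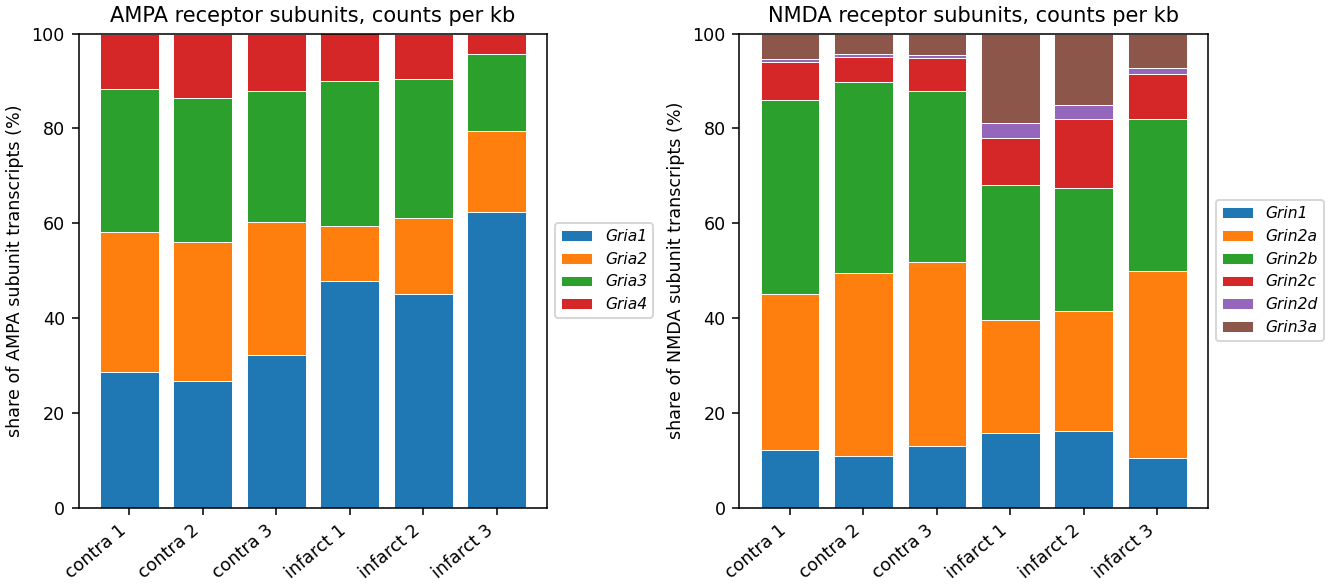
Percentage of AMPA (left) and NMDA (right) subunit transcripts taken by each subunit in every library, from counts per kb of exon, with contralateral cortices (contra) 1 to 3 to the left of infarcts 1 to 3. The *Gria1* segment takes 45.1% to 62.3% in infarcts and 26.7% to 32.2% in contralateral cortices, and the *Grin3a* segment is largest in infarct 1, at 19.0%.

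Within the NMDA family, *Grin3a* made up 19.0%, 15.1%, and 7.34% of transcripts in infarcts and 5.28%, 4.4%, and 4.6% in contralateral cortices. *Grin2d* made up 3.02%, 2.99%, and 1.12% in infarcts and 0.687%, 0.609%, and 0.641% in contralateral cortices, and *Grin2c* averaged 11.3% and 6.75%. These 3 minor subunits took larger shares in every infarct than in any cortex, while *Grin2b* took 28.5%, 26.0%, and 32.2% in infarcts, less than its 41.0%, 40.1%, and 36.1% in contralateral cortices (exact permutation p = 0.1 and adjusted p = 0.157 for each of the 4). Infarct 3 was nearest to the contralateral composition for *Grin2b*, *Grin2c*, *Grin2d*, and *Grin3a*. The shares of *Grin1* and *Grin2a* overlapped between regions (exact permutation p = 0.4 for each), and for *Grin2a* infarct 3 (39.3%) lay above all cortices (32.7%, 38.7%, and 38.7%) while infarcts 1 and 2 (23.9% and 25.3%) lay below them. The size of the share differences depended on the length correction, since with none *Grin2c* was 1.69 points higher in infarcts in place of 4.54 and *Grin2d* 0.763 in place of 1.73.

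Relative to *Grin1* in the same library, the log2 fold change was higher by 1.58 for *Grin2d* (SE 0.55, adjusted p = 0.00482) and by 1.22 for *Grin3a* (SE 0.49, adjusted p = 0.0146) in the limma fit. Without moderation the SEs were 0.29 and 0.24, and both were called (adjusted p = 0.00889 and 0.0107, respectively), as were 86.4% of all genes. With moderation, 87% of all genes were called higher than *Grin1*, and 0.411% lower. *Grin2d* was called in each of the 6 moderated fits that left out 1 library (adjusted p at most 0.0351), whereas *Grin3a* was not called without infarct 1 or without any contralateral cortex (adjusted p 0.0558 to 0.0875). *Grin2c* (difference 0.54, adjusted p = 0.296), *Grin2a* (-0.57, adjusted p = 0.238), and *Grin2b* (-0.66, adjusted p = 0.165) were not called against *Grin1*. Without infarct 3, *Grin2a* (-1.0, adjusted p = 9.42e-05) and *Grin2b* (-0.94, adjusted p = 1.80e-04) were called lower than *Grin1*, as were 1.12% of all genes, and 90.9% were called higher.

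The ratio of *Grin2b* to *Grin2a* was 1.19, 1.03, and 0.819 in infarcts and 1.25, 1.04, and 0.932 in contralateral cortices. The ranges overlapped (exact permutation p = 0.7), and the log2 fold changes of these genes differed by -0.09 in limma (adjusted p = 0.930). The 95% interval of that difference was -1.88 to 1.70 with moderation across genes and -0.65 to 0.47 without it.

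To compare the subunits with transcripts common to all neurons, each was set against the mean log2 level of the 14 pan-neuronal genes in the same library. The fold change was less negative than that reference for *Grin2d* (difference 1.81, SE 0.56, adjusted p = 0.00146), *Gria1* (1.56, SE 0.48, adjusted p = 0.00142), and *Grin3a* (1.45, SE 0.51, adjusted p = 0.00487), in limma. These 3 subunits were the ones called, and 88.8% of all genes were called the same way and 0.231% lower than the reference. Differences of the other 7 lay between -0.42 (*Grin2b*, 95% interval -1.35 to 0.50) and 0.77 (*Grin2c*, adjusted p = 0.143), and *Grin2c* was called in the fit without moderation (adjusted p = 0.0111), as were 88.9% of all genes. *Gria4* was closest to the reference, at 0.02 (interval -0.96 to 1.0). Without infarct 3, 6 subunits were called, the additional ones being *Gria3* at 0.65, *Grin2b* at -0.72, and *Grin2a* at -0.78, the last 2 lower than the reference. Of all genes, 91.8% were then called higher than the reference and 0.421% lower. With all libraries and the mean of the excitatory neuron genes as reference, *Grin2d*, *Gria1*, and *Grin3a* were again called higher in limma. *Grin2b* was called lower in that fit (-0.73, adjusted p = 0.0277), and *Grin2a* was not called (-0.64, adjusted p = 0.0582). Of 15554 genes, 13731 were called higher than the excitatory reference and 154 lower.

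The other genes of glutamate receptors were then counted from lists, again beside 20.9% of all tested genes lower and 25.7% higher. Of 15 genes for auxiliary proteins of AMPA receptors, 14 were tested, 9 were lower, and 0 were higher, with a median log2 fold change of -2.09. The TARP genes *Cacng2* (stargazin, -3.65) and *Cacng3* (-3.46) and the cornichon gene *Cnih3* (-3.40) had the most negative values. *Cacng4* (-0.14) and *Cacng5* (-0.32) were not called. *Shisa6*, which encodes an AMPA receptor protein of the CKAMP family, measured 4.46, 7.78, and 94.3 CPM in infarcts and 57.0, 51.0, and 38.2 CPM in contralateral cortices, so that infarct 3 alone was above the cortices (log2 fold change -0.45, adjusted p = 0.748).

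All 9 tested genes of kainate and delta receptors and their Neto partners, of 10 listed, were lower, with a median log2 fold change of -1.88. They ranged from the kainate subunit *Grik1* (-2.85), *Neto1* (-2.82), and *Grik3* (-2.53) to *Neto2* (-1.79), *Grik2* (-1.53), and *Grik4* (-1.18). The tenth, the GluN3B gene *Grin3b*, had at most 5 counts in any library and was not tested. Metabotropic glutamate receptors, which signal through G proteins, were lower for all 7 tested genes of 8, with a median of -2.53. *Grm2* (-4.21), *Grm8* (-3.17), and *Grm7* (-2.94) had the most negative values, *Grm5* (-2.51) and *Grm4* (-2.45) were less negative, and *Grm6* had 0 counts in all libraries.

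The enzyme that edits the Q/R codon shown above, *Adarb1*, measured 48.7, 58.0, and 57.9 CPM in infarcts and 181, 192, and 195 CPM in contralateral cortices. It fell by 1.79 on the log2 scale (SE 0.14, adjusted p = 3.61e-06). *Adarb2*, a relative without known editing activity that also marks interneurons, fell by 2.5, and *Adar* was at -0.90 (adjusted p = 1.72e-04), short of the fold threshold. Among 9 tested genes of 10 for the glycine and D-serine co-agonists, 4 were lower and 0 higher, with a median of -0.47, against the 20.9% and 25.7% of all tested genes. The D-serine transporter *Slc7a10* (-2.79), the glycine decarboxylase *Gldc* (-1.45), and serine racemase (*Srr*, -1.23) fell, while the serine synthesis genes *Phgdh* (0.45) and *Psph* (0.04) and the glycine transporter *Slc6a9* (-0.02) were not called.

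**Figure D5:**
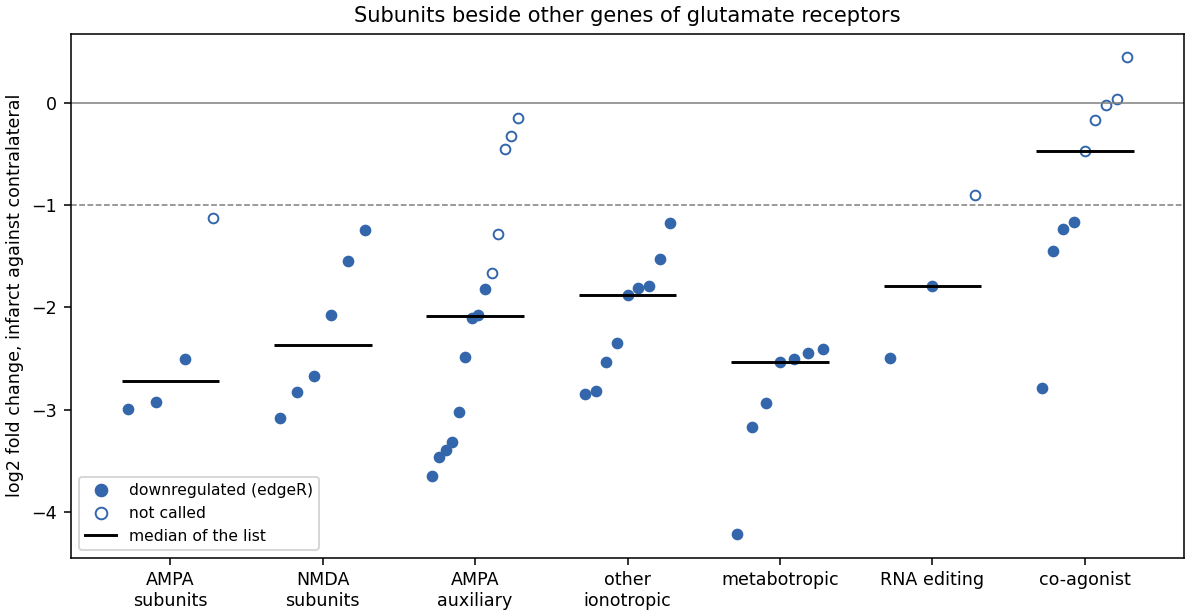
Log2 fold change, infarct against contralateral cortex, of the AMPA and NMDA subunits beside the tested genes of 5 related lists, where filled points were called lower by edgeR, open points were not called, and bars mark list medians. The dashed line marks a log2 fold change of -1. List medians run from -2.72 for AMPA subunits to -0.47 for co-agonist genes, and 1 of 10 subunits is open.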

How the data were processed

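RNA was sequenced from 3 infarcts and 3 contralateral cortices. The authors prepared stranded mRNA libraries and processed reads with bcl2fastq 2.19, Trimmomatic 0.32, and STAR 2.5.2b (GRCm38). They deposited raw counts per Ensembl gene from htseq-count, whose version, annotation, and strand setting are not given in the sources used here. Each table's 5 entries without a gene (26.6% to 34.3% of tallied reads) were left out. Of 46078 identifiers, 45229 matched GENCODE M21, which gave symbols, positions, exon lengths, and sequences. Which samples share a mouse is not stated, so that p-values measure the spread between these samples.

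Tests were run in edgeR 4.0.16 under R 4.3.3 (filterByExpr, TMM, robust quasi-likelihood fit with region as its only term), with SE taken as the log2 fold change divided by the square root of F. Subunits were compared with references in limma 3.58.1 on log2 CPM (prior count 2, trend, robust), called at an adjusted p under 0.05 over all tested genes. Exact permutation tests went through every split of the libraries into 3 against 3, in Python 3.11.15 with NumPy 2.4.6. In each list the 3 genes with the lowest and the 3 with the highest log2 fold change were named, and of cell type lists the gene with the highest mean CPM over all 6 libraries (not corrected for length and used only to choose the name), except for some items that are not reported here. *Grin1os* and *Grin3b* were named for overlap with or kinship to the subunits. *Foxp2*, *Slc17a6*, *Neurod6*, and *Cux2* were added after their values were seen. The subunits and lists were chosen with earlier results of these data known. Alternatives were DESeq2 1.42.0, limma voom, RLE or library total scaling, no filter or at least 10 counts in every library, glmTreat, a replicate block, other references and lengths, and each library left out. The procedure was tested on simulated data in which few genes changed and no library deviated from its group as a whole, unlike the data here. Intervals are limited by 3 libraries per region.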

Additional observations from a re-analysis of the deposited data

How the results depend on the processing

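No subunit was called higher in any of the 15 alternatives to the edgeR fit, and 7 to 10 were called lower, 9 with DESeq2 1.42.0. *Grin2a* was not called with no filter on low counts (adjusted p = 0.0790) or against a fold of 2 with glmTreat (0.0513), nor was *Grin2d* with glmTreat (0.173). Scaling by library totals moved the median of all genes by 0.203 (log2) and left 9 subunits lower. Leaving out 1 library at a time gave 8 to 10 subunits called lower, 3 to 6 that differed from the pan-neuronal reference, 0 to 2 AMPA subunits that differed from *Gria2*, and 1 to 4 NMDA subunits that differed from *Grin1*. Without infarct 3 these were the highest counts. Against the mean of the NMDA subunits in place of *Grin1*, 1 NMDA subunit was called. The *Gria3* share was 4.04 points lower in infarcts (-4.04 points), turned to 0.40 points higher with no length correction, and ranged from -6.64 to 0.565 points with 1 library left out. With no length correction the differences of *Gria4* (-4.46 to -1.95 points) and *Grin2a* (-7.26 to -3.53) were also smaller in size. The causes were not tested.

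With the replicate number as a block, 10 subunits were called lower (*Gria1* at -1.48, adjusted p = 0.0337) and 0 AMPA subunits differed from *Gria2*. The numbers were not taken to pair the samples, since deviations of same-numbered samples correlated at -0.19, 0.101, and 0.0011, and not every sample correlated best with its own number. With 3 libraries per region and infarct 3 far from the others, intervals on differences between subunits are wide, and depth limits mainly *Grin2d*.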

Other observations

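All tested genes other than the 10 subunits were ranked by how closely their log2 levels, centered over the 6 libraries, followed the mean profile of the 10 subunits. The nearest were *Nova2* (a neuronal splicing factor), *Adgrb3* (an adhesion receptor of synapses), *Snph* (which anchors axonal mitochondria), *Clstn2* (a postsynaptic calsyntenin), and *Trim46* (a protein of the axon initial segment), at root mean square distances of 0.072 to 0.086 on the log2 scale. Their log2 fold changes were between -2.48 and -2.26. Of the subunits themselves *Grin1* was nearest to the mean profile (0.185) and *Grin2d* was farthest (0.717). These distances describe 6 libraries that differ mainly by region.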
